A study of Homo sapiens with 2 samples.

Results

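The clustered histone genes were followed on 2 microarrays that compared RNA recovered by immunoprecipitation from 293T cells, a human embryonic kidney line transformed with the large T antigen of SV40. A gene was a member when a probe set carried its symbol alone and that symbol named a clustered H1, H2A, H2B, H3 or H4 gene, which gave 45 of the 19775 genes with a probe set of their own. These genes had 51 of the 41091 such probe sets: 7 for H1, 11 for H2A, 15 for H2B, 8 for H3 and 10 for H4. One array held RNA precipitated with antibody to Ago2 from cells transfected with Synthetic miR-941, called here the miR-941 array. The other held RNA from cells transfected with a scrambled oligo, called the scrambled array, and both oligonucleotides were given at 30 nmol/l. The scrambled sample is titled an Ago2 precipitate, but its antibody entry names nonimmune IgG beads. If that entry is right, the effects of oligonucleotide and antibody cannot be told apart. Each group was 1 array, so no difference below has a replicate check or a test. Neither array held total RNA, so how well an mRNA was precipitated and how much of it the cells held cannot be told apart, nor can fewer expressing cells and less RNA per cell.

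Histones package DNA. A core of H2A, H2B, H3 and H4 winds the DNA into a nucleosome, and the linker histone H1 closes it. Cells need new histones each time they copy their DNA, and the genes that supply them lie in clusters and are read in S phase. Their mRNAs are unusual: most have no intron and end in a stem-loop, held by the protein SLBP, in place of a poly(A) tail. Some of these genes also make polyadenylated transcripts. How the RNA was primed before labelling is not given in the sources used here.

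The transfected microRNA is one of a group of repeated human genes. RefSeq lists 5 copies on chromosome 20, all with 1 mature sequence, the first at chr20:63919495-63919517 on the plus strand (GRCh38.p14). It is shown because it is what set the cells apart, with its seed, bases 2 to 8, in capitals. The transcripts of the histone genes were not searched for seed matches here.
hsa-miR-941: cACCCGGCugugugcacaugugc

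Most clustered histone genes gave little signal on either array. A probe set counted as detected when its log2 values on the 2 arrays averaged more than 0.92, the midpoint of such averages across the array with the Affymetrix controls left out. By this rule 19 of the 51 histone probe sets, from 18 of the 45 genes, were detected (37.3%), where 56.7% of all probe sets with 1 symbol were. The share differed between histone classes: 6 of 11 probe sets for H2A, 7 of 15 for H2B and 3 of 7 for H1 were detected, against 2 of 10 for H4 and 1 of 8 for H3. The nearest probe sets on each side of the level were both of H1-6, the testis H1, with means of 0.95 and 0.89. Clustered genes resemble each other closely, and 9 of the 51 probe sets are marked _x_at by the manufacturer, which means that their probes may also bind other transcripts. Of these 9, 7 were detected, and 5 of those 7 belong to H2B. Over all probe sets with 1 symbol, 2082 of 2998 _x_at ones were detected.

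**Figure D1:**
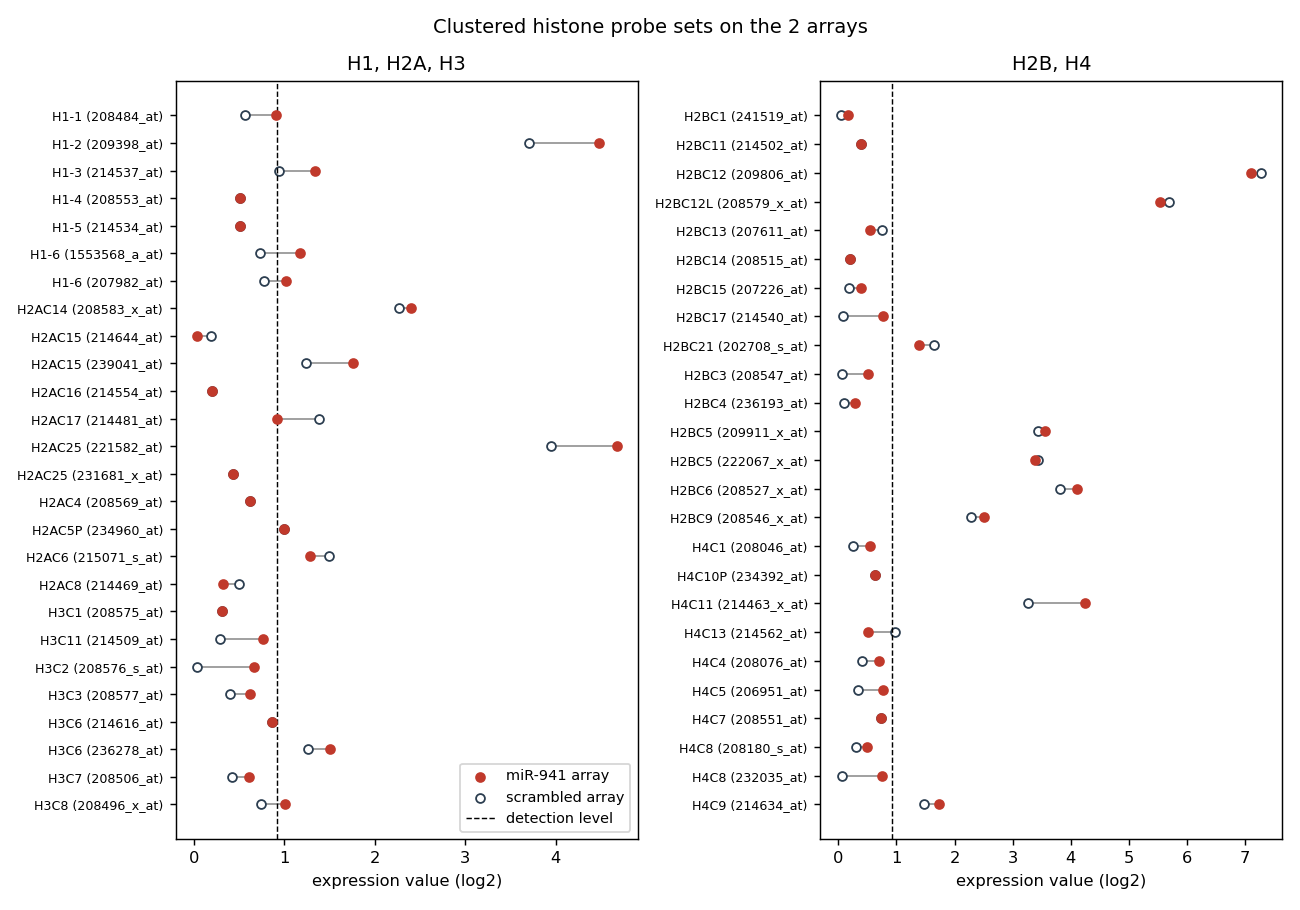
Log2 expression value of each of the 51 clustered histone probe sets on the miR-941 array (filled red) and the scrambled array (open), joined by a line, with the detection level of 0.92 dashed and a separate horizontal scale in each panel. Most points lie left of the dashed line, and the widest gap right of it is that of H4C11, at 4.25 on the miR-941 array and 3.26 on the scrambled array.

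Where histone probe sets were detected, more read higher than lower on the miR-941 array, and all differences were under 2-fold. Of the 19, 12 were higher, 6 lower and 1 equal, a share of 63.2% higher, against 44.2% of all detected probe sets with 1 symbol. The lower share was 31.6%, against 43.4%. The median log2 difference, miR-941 array minus scrambled array, was 0.21 for the histone probe sets and 0.00 for all detected ones. No histone probe set reached a difference of 1, which is 2-fold, although H4C11 passed it narrowly (1.00) once a loess trend on level was removed. Of all detected probe sets 0.36% were 2-fold higher and 0.485% were 2-fold lower. At 1.5-fold 3 of the 19 were higher (H4C11, H1-2 and H2AC25), where 3.62% of all detected probe sets were, and 0 were lower, where 4.04% were. The differences of all detected probe sets had an SD of 0.33, and the 2 brightest detected probe sets of 1 gene differed from each other with a within-gene SD of 0.29 over 6106 genes. These spreads come from the same 2 arrays and hold no variation between cultures.

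**Figure D2:**
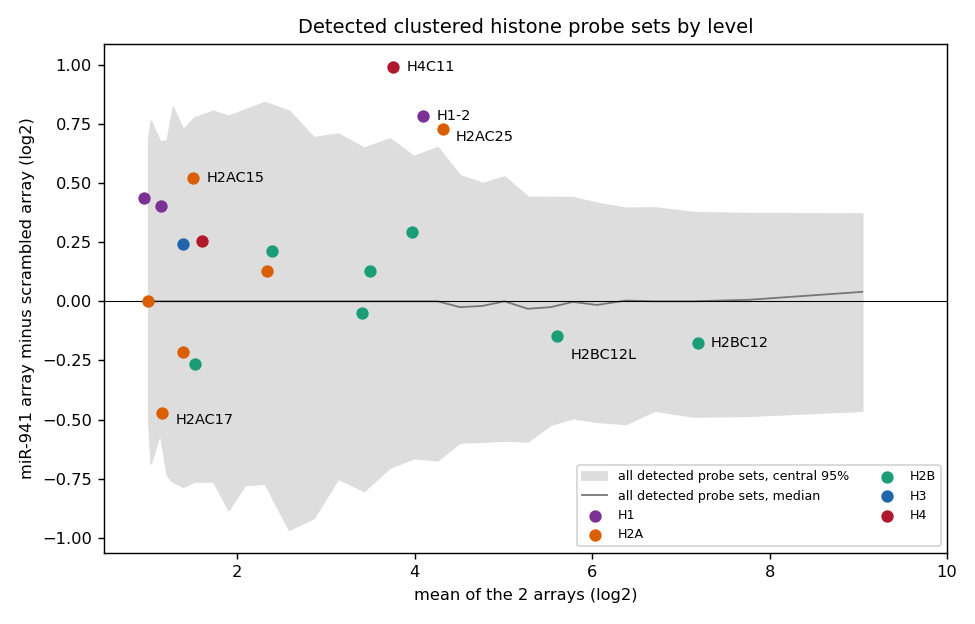
Log2 difference (miR-941 array minus scrambled array) of the 19 detected clustered histone probe sets against the mean of both arrays, coloured by histone class, over the median and central 95% of all detected probe sets in 30 bins of level. H4C11, H1-2 and H2AC25 lie above the band and no histone probe set lies below it.

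None of the 7 clustered H1 probe sets, which measure linker histone genes, was lower on the miR-941 array. H1-2, a somatic H1, read 4.48 on the miR-941 array and 3.70 on the scrambled array, a log2 difference of 0.78. H1-3, another somatic H1, read 1.34 on the miR-941 array and 0.94 on the scrambled array, a difference of 0.40 close to the detection level. One of the H1-6 probe sets was detected, with 1.17 on the miR-941 array and 0.73 on the scrambled array. Its other probe set, below the level, also read higher, by 0.24. Among the undetected genes H1-1 had 0.34, while H1-4 and H1-5 each read 0.51 on both arrays. Over all 7, detected or not, 5 were higher, 0 lower and 2 equal. Of all probe sets with 1 symbol, detected or not, 44.4% were higher, 35.8% lower and 19.9% equal. Of the 7 H1 probe sets, 4 were below the detection level and 2 measured 1 gene, H1-6. Outside the clusters H1-8, the oocyte H1, was undetected and read 0.19 on the miR-941 array and 0.87 on the scrambled array.

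H4 genes, which all encode the same core protein or nearly so, also read higher more often than lower. Of their 10 probe sets, 8 were below the detection level. H4C11 read 4.25 on the miR-941 array and 3.26 on the scrambled array, a difference of 0.99 and the largest of any clustered histone probe set. Its only probe set is an _x_at one, whose probes may also bind other H4 mRNAs. H4C9 read 1.73 on the miR-941 array and 1.48 on the scrambled array, a difference of 0.26. The other 7 H4 genes, H4C1, H4C4, H4C5, H4C7, H4C8, H4C13 and the pseudogene H4C10P, were below the level. Their 8 probe sets read from 0.50 to 0.78 on the miR-941 array and from 0.07 to 0.98 on the scrambled array, with 5 higher, 1 lower and 2 equal. The lower one was H4C13, at -0.47, and both probe sets of H4C8 were higher, by 0.19 and 0.68. Of all probe sets with 1 symbol below the level, 44.6% were higher, 25.8% lower and 29.6% equal.

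Probe sets that the annotation assigns to many histone genes at once were not members, but they bear on the same mRNAs. There were 20, of which 10 were detected: 6 higher, 2 lower and 2 equal (median difference 0.21). Several are assigned to the same genes, so these counts are not independent. Shares over all 1801 probe sets with several symbols are not given here. Of the probe sets with 1 symbol 56.7% were detected, and of those detected 44.2% were higher and 43.4% lower. Of the 6 H4 ones among the 20, the first, assigned to 14 H4 genes, read 10.94 on the miR-941 array and 10.65 on the scrambled array. This was a difference of 0.29. Another of 14 H4 genes, an _x_at probe set, had 0.43, and the remaining detected one read 0.99 on both arrays. Both detected H2B ones, each of 5 H2B genes and each _x_at, differed in opposite directions, by 0.42 and -0.31. The detected H2A ones had 0.40 and 0.18 (each of 2 genes) and -0.12 (of 6 genes). One of 10 H3 genes had 0.23, and the last, of an H2A and an H3 gene, was equal on both arrays. These 20 probe sets cover 19 clustered genes that have no probe set of their own. The first H4 probe set was far above the detection level on both arrays, while 8 of the 10 single-gene H4 probe sets were below it.

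H2A genes were divided. H2AC25, an H2A gene on chromosome 1, read 4.68 on the miR-941 array and 3.95 on the scrambled array, a difference of 0.73. Its second probe set, an _x_at one, read 0.43 on both arrays. H2AC15 read 1.76 on the miR-941 array and 1.24 on the scrambled array, a difference of 0.52, while its other probe set was undetected and lower by a difference of -0.16. H2AC14 had 2.40 on the miR-941 array and 2.27 on the scrambled array. H2AC17 read 0.92 on the miR-941 array and 1.39 on the scrambled array. Its difference of -0.47 was the lowest among the detected histone probe sets, at a level close to the detection level. H2AC6 had 1.28 on the miR-941 array and 1.49 on the scrambled array, and the pseudogene H2AC5P read 0.99 on both. The 3 undetected genes were H2AC4, H2AC8 and H2AC16, of which H2AC8 had -0.18 and the others were equal on both arrays. For H2A as a class the detected median was 0.06, with 3 higher, 2 lower and 1 equal.

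The detected single-gene H2B probe sets lay on both sides of 0. H2BC12, an H2B gene of the chromosome 6 cluster, read 7.10 on the miR-941 array and 7.28 on the scrambled array, a difference of -0.18. H2BC12L, a related gene on chromosome 21, read 5.53 on the miR-941 array and 5.68 on the scrambled array, a difference of -0.15 on an _x_at probe set. H2BC21, also on chromosome 1 but not paired with H2AC25, read 1.39 on the miR-941 array and 1.65 on the scrambled array, a difference of -0.26. The remaining detected H2B genes were measured by _x_at probe sets. H2BC6 had 4.11 on the miR-941 array and 3.82 on the scrambled array, and H2BC9 had 2.498 on the miR-941 array and 2.29 on the scrambled array. The 2 probe sets of H2BC5 had differences of 0.13 and -0.05. All 7 detected H2B probe sets lay between -0.26 and 0.29, with 3 higher, 4 lower and a median of -0.05. Below the level were H2BC1, H2BC3, H2BC4, H2BC11, H2BC13, H2BC14, H2BC15 and H2BC17, whose values ran from 0.16 to 0.77 on the miR-941 array and from 0.05 to 0.76 on the scrambled array. Of these, 5 were higher, 1 was lower and 2 were equal, and H2BC17 had the largest difference, 0.68. With them the H2B median was 0.11, on the other side of 0.

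H3 was hardly seen. H3C6 was the only detected H3 gene, on 1 of its 2 probe sets, with 1.51 on the miR-941 array and 1.26 on the scrambled array, a difference of 0.24. Its other probe set read 0.87 on both arrays. The 7 undetected H3 probe sets read from 0.31 to 1.00 on the miR-941 array and from 0.03 to 0.87 on the scrambled array. Of these, 5 were higher, 0 lower and 2 equal, the largest being H3C2 at 0.63, followed by H3C11 at 0.47. H3C8, H3C3 and H3C7 had 0.26, 0.23 and 0.19, and H3C1 read 0.31 on both arrays.

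Undetected probe sets carry little information one by one. Of the 32 histone probe sets below the level, 17 were higher, 4 lower and 11 equal. Among all probe sets with 1 symbol below the level, 44.6% were higher, 25.8% lower and 29.6% equal, so more higher than lower readings were also seen below the level over the array as a whole. The array medians were 0.98 (miR-941) and 0.92 (scrambled). Exact ties were common over all 54675 probe sets, of which 21.6% read the same on both arrays. Some differences at low levels also recurred exactly between genes. H2AC17 and H4C13 both had -0.469894, and the detected H1-6 probe set and H4C5 both had 0.436116. Whether such differences belong to the single genes was not tested.

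Neighbouring H2A and H2B genes often face away from each other and share the DNA between them as a promoter. RefSeq placed 11 such H2A and H2B pairs with starts 194 to 248 bases apart, and 4 pairs had both genes among the members. H2AC17 and H2BC17 had differences of -0.47 and 0.68, and H2AC6 and H2BC4 had -0.21 and 0.19. H2AC15 and H2BC15 had 0.52 and 0.21, and H2AC14 and H2BC14 had 0.13 and 0.00. Thus the genes of 1 pair differed in the same direction and those of 2 pairs in opposite directions, and in 1 pair H2BC14 read the same on both arrays. In all 4 pairs the H2A gene was detected and the H2B gene was not.

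The promoters of these genes carry different known elements by histone class. The 250 bases before the start of transcription were taken from RefSeq (GRCh38.p14), which matched 40 of the 45 genes, using the first listed start of each gene. They are printed for H1-2 and H4C11, which had the largest differences, and for H2BC12, which was detected well above the level and differed little. All 3 lie in the chromosome 6 cluster: H1-2 at chr6:26056471-26056720 on the minus strand, H4C11 at chr6:27823842-27824091 on the plus strand, and H2BC12 at chr6:27146859-27147108 on the minus strand. Capitals mark matches on either strand to the TATA box (TATAAA), the CAAT box (CCAAT), the octamer known from H2B promoters (ATTTGCAT) and the AC box known from H1 promoters (AAACACA), and overlapping matches are merged.
H1-2: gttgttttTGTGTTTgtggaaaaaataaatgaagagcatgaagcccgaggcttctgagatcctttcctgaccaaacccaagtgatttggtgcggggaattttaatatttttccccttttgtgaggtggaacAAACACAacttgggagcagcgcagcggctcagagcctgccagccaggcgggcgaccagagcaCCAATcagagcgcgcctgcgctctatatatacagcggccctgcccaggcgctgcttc
H4C11: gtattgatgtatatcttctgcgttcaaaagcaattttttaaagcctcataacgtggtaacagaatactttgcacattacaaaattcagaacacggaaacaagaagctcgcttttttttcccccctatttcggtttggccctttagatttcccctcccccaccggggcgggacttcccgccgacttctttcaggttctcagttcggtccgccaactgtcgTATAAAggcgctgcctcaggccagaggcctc
H2BC12: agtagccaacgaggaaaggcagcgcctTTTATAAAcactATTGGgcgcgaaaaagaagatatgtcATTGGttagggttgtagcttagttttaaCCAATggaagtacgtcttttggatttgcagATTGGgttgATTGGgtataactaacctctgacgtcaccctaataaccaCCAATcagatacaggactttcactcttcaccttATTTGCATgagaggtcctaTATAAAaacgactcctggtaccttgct

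The H1-2 promoter held 2 AC box matches and 1 CAAT box match, and the H4C11 promoter 1 TATA box match alone. The H2BC12 promoter held 6 CAAT box matches, 3 TATA box matches and 1 octamer. Of its 3 TATA box matches, 2 overlap on opposite strands and are printed as 1 stretch. Over the 40 promoters, 67.5% held a TATA box match and 87.5% a CAAT box match, against 11.1% and 33.0% of 27305 promoters of all genes. The octamer was found in 10 of 13 H2B and 6 of 8 H2A promoters and in 0 of the 19 promoters of the other classes, against 1.66% of all promoters. Windows of facing H2A and H2B genes overlap, so these counts are not independent. The AC box was found in 6 of 6 H1 promoters and in no other member's, against 4.95% of all promoters. Only 2 of 7 H4 promoters held a CAAT box match. A match describes these letters only and shows no binding.

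**Figure D3:**
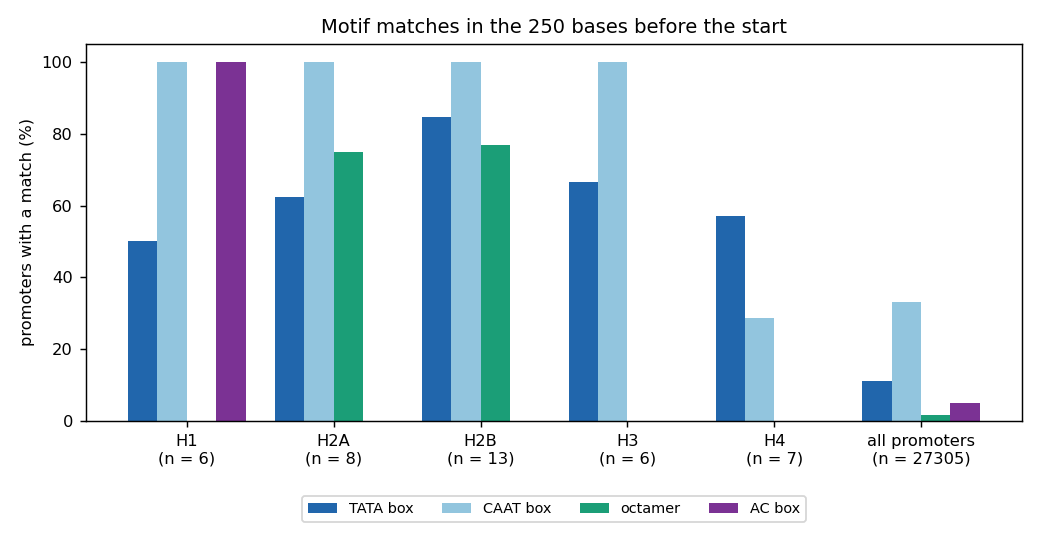
Percent of promoters with at least 1 match to each motif in the 250 bases before the start, for the member genes by histone class and for all 27305 RefSeq promoters, with the number of promoters under each group. The AC box marks the H1 bars at 100% and the octamer is seen for H2A and H2B (76.9%) and for no other histone class.

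Histone genes outside the clusters mostly make polyadenylated mRNAs that are not tied to S phase. Of the 11 on the array 9 were detected, 5 of them higher, 3 lower and 1 equal. Their median was 0.08, which turned to -0.14 without _x_at and _s_at probe sets, and none was past 2-fold, where 0.517% of 13150 detected genes were past 2-fold either way. This and the following lists use the brightest probe set of each gene, by which 46.3% of all detected genes were higher and 42.4% lower. On the same footing the clustered genes had 12 of 18 higher, 5 lower and 1 equal (median 0.23). H1-10, a linker histone variant, read 5.31 on the miR-941 array and 4.63 on the scrambled array, a difference of 0.68. H3-3A, which encodes the replacement histone H3.3, read 1.52 on the miR-941 array and 1.00 on the scrambled array, on 1 detected probe set. H3-3B shares its probe sets with other genes and had no value of its own. H2AX, the variant phosphorylated at DNA breaks, had -0.23, with its 3 detected probe sets split into 1 higher, 1 lower and 1 equal. H2AZ2 had -0.19 and was lower on all 4 probe sets.

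Factors that make and mature histone mRNA also read higher more often than lower. Of the 32 on the array 31 were detected. Of these 19 were higher, 11 lower and 1 equal, and none was past 2-fold; the median was 0.07. SLBP, which binds the stem-loop, read 8.42 on the miR-941 array and 8.41 on the scrambled array. NPAT, the activator of clustered histone transcription, read 5.05 on the miR-941 array and 5.60 on the scrambled array, a difference of -0.56, and both of its probe sets were lower. CASP8AP2 (FLASH), which works with NPAT at the histone loci and in 3' end processing, had -0.38 on 1 probe set. ERI1, a nuclease that trims the histone stem-loop, had 0.31, and the cap-binding gene NCBP2 had 0.29.

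Histone chaperones carry new histones to DNA. All 30 on the list were detected, 12 higher, 17 lower and 1 equal, and none was past 2-fold. Their median of -0.04 became 0.0682 without _x_at and _s_at probe sets and 0.0187 when differences were averaged over probe sets. TONSL, which binds new histones at replication forks, had -0.80, but 1 of its 2 detected probe sets was higher, and UBN2, a subunit of the HIRA complex, had -0.49 and was lower on all 3. MCM2, a replication helicase subunit that also binds histones, had 0.43, and SUPT16H of the FACT complex had 0.36. All 23 S phase genes on the array were detected. They read higher more often than lower, with 17 higher and 6 lower (median 0.06). LIG1, the ligase that joins Okazaki fragments, read 4.78 on the miR-941 array and 4.01 on the scrambled array, and TK1 (thymidine kinase) had 0.47 on its brightest probe set, with its other detected probe set lower. CLSPN (claspin, of the replication checkpoint) was the only gene of these lists past 2-fold, at 3.16 on the miR-941 array and 4.28 on the scrambled array, a difference of -1.13, with both probe sets lower. TYMS (thymidylate synthase) had -0.23, also lower on both.

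**Figure D4:**
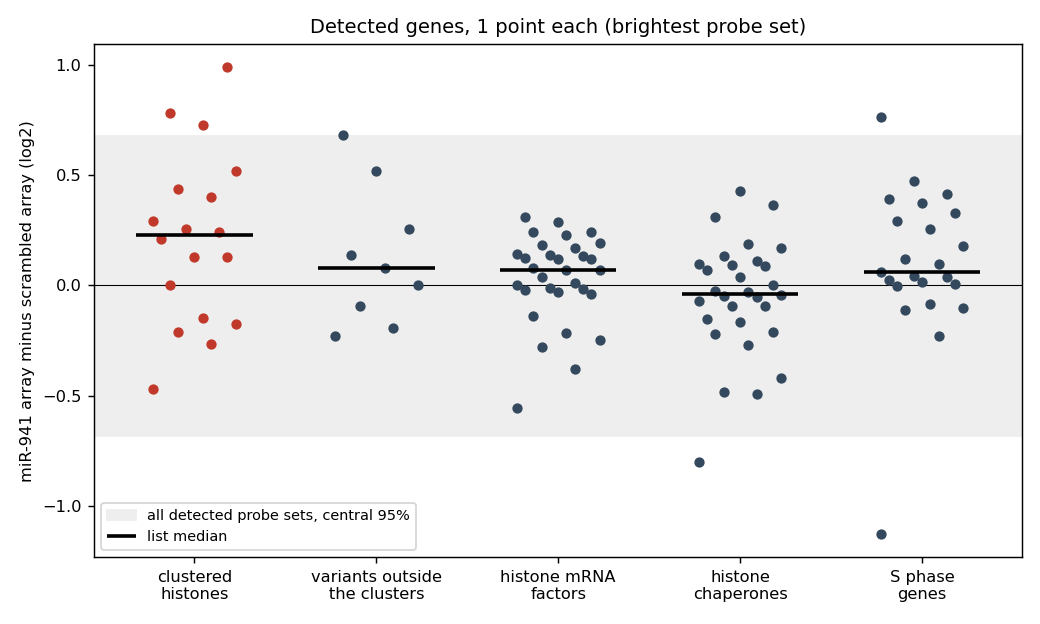
Log2 difference (miR-941 array minus scrambled array) of each detected gene, by its brightest probe set, for the clustered histone genes (red) and the other lists, with the list median as a bar and the central 95% of all detected probe sets shaded (-0.68 to 0.68). The clustered histones have a median of 0.23, and the other medians lie between -0.04 and 0.08. Of these, the chaperone median (0.0682) and the variant median (-0.14) change sign without _x_at and _s_at probe sets. More genes were higher than lower in every list except the chaperones.

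The 2 arrays also differed in values that touch the comparison as a whole. For actin, the probe set at the 5' end of the mRNA differed by -0.66 and that at the 3' end by -0.04, and for GAPDH they differed by -0.19 and 0.05. The part of this in the histone differences was not tested. Of 10 genes described in 293T cells or its parent line, 8 were detected, among them the filament genes NEFL and VIM. LHX1 and KRT8 were below the level. Differences of the 8 detected genes ran from -0.59 (INA) to 0.44 (STMN1). The log2 values of all 10 genes summed to 48.6 on the miR-941 array and 49.1 on the scrambled array. Of 11 markers of other cell types, 9 were on the array by a symbol of their own and 5 passed the level, with values summed over the 9 of 9.56 on the miR-941 array and 8.92 on the scrambled array. The endothelial markers VWF and PECAM1 had differences of 0.73 and 0.44 and the glial marker GFAP 0.47, while the fibroblast marker COL1A1 had -0.24 and the basal epithelial marker KRT5 -0.37. Below the level were PTPRC of blood cells (-0.21), ALB of liver (-0.18), and CD3E of T cells and COL1A2 of fibroblasts, both equal on the 2 arrays. The part of these markers in the histone differences was not tested. COL1A1 had a mean over the 2 arrays of 2.60. VWF, PECAM1, GFAP and KRT5 had means from 1.02 to 1.26, near the detection level of 0.92. Of the 19 detected histone probe sets, 9 also had means between that level and 2. Whether signal in this range is more than background was not tested.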

How the data were processed

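RNA precipitated from 293T cells was measured on 2 Affymetrix arrays, 1 per group, grouped by the transfected oligonucleotide. The authors made the deposited values with the RMA package of R, per the labels' and series' design text, 1 for each probe set. The scale of these deposited values is taken to be log2, as RMA gives it, since they reach at most 13.7. Their low end goes below 0. Among probe sets with 1 symbol the lowest values were -0.24 (miR-941 array) and -0.29 (scrambled array). Which step gave these low values was not tested. The submitters' processing notes also name affy and MAS5, without versions. Their scale and any centring are not given in the sources used here. Detection calls were not used. A genome build (GRCh38.p14) was used only for RefSeq gene matching, promoters and positions.

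Gene names came from the platform annotation. Of 54675, 41091 had 1 symbol and entered, while 1801 had several, 11721 had none there and 62 were controls. Entrez identifiers linked symbols to RefSeq (GRCh38.p14), which held 41037 of them and all 51 histone probe sets. Differences are log2 values of the miR-941 array minus the scrambled array, summarised by counts and medians in Python 3.11.15 with pandas 2.3.3; a loess trend (span 0.3) used statsmodels 0.14.6. The summaries were tested on simulated data. The number of arrays limits the precision.

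Every detected member is named; other lists name SLBP, NPAT, the H3.3 genes, the 2 highest and lowest genes and any past 2-fold. The members and lists were chosen with earlier results of these data known.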

Additional observations from a re-analysis of the deposited data

How the results depend on the processing

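No paired analysis was possible because there is a single array for each oligonucleotide, which also means that none can be left out. The no-filter medians by class were chosen after seeing the data. At the 75th percentile of level (3.37), 8 histone probe sets were detected (5 higher, 3 lower), and 5 genes were higher and 2 lower with a gene median of 0.29. The matching shares over all probe sets at that level are not given here. Without _x_at and _s_at probe sets, 10 were detected (7 higher, 2 lower) with a median of 0.33, for probe sets and genes alike, and 7 genes were higher and 2 lower. Of all 14194 detected probe sets with 1 symbol left by that filter, 6243 were higher and 6125 lower. With no level filter, 29 probe sets were higher and 10 lower (27 and 8 genes), with medians of 0.19 for both, where 44.4% of all probe sets with 1 symbol were higher and 35.8% lower; the H2B median reversed to 0.11. With the loess trend removed, the medians were 0.20 (probe sets) and 0.21 (genes), and H4C11 passed 2-fold at 1.00, making 1 probe set; at 1.5-fold there were 3. Each stricter filter holds fewer probe sets by construction. For the lists, medians without _x_at and _s_at were -0.14 (variants), 0.12 (mRNA factors) and 0.0682 (chaperones); with the loess trend removed 0.0577, 0.0778 and -0.0263, and 0.0506 (S phase); and averaged over probe sets 0.0480 (variants), 0.0187 (chaperones) and 0.12 (S phase). The variant median thus reversed in the first of these and the chaperone median in the first and last; the cause was not tested. Subtracting the median of all detected probe sets, which was 0.00, changed no value. Dim signal limits 32 of the 51 probe sets.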

Other observations

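Detection of the clustered histone probe sets was also split by the accession their annotation gives, a split chosen after the values were seen. Of the 34 probe sets whose annotation gives a RefSeq mRNA accession, 8 were detected (23.5%), against 11 of the 17 with another accession or none (64.7%). Over all probe sets with 1 symbol the shares were 65.5% and 54.1%. The second group of histone probe sets includes those of H1-2, H2AC25, H2BC12 and H2BC12L, and the expressed sequence tags for H2AC15 and H3C6. Both of those genes also have a probe set below the level. That of H2AC15 is in the same second group, and that of H3C6 is in the first. Probe sets of H2AC25, H2BC1, H2BC4, H4C8 and H4C10P in the second group were below the level too.

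Of 7 clustered genes described with polyadenylated transcripts, a list from general knowledge, 5 were detected (H1-2, H2AC6, H2BC5, H2BC12 and H2BC21), against 13 of the other 38. The share among the 7 (71.4%) is near the 66.5% of all genes with a probe set of their own that were detected. Differences of the 5 detected genes ran from -0.26 to 0.78, with 2 higher and 3 lower and a median of -0.18. The undetected ones were H2BC4 and H4C8.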
